A study of Homo sapiens with 32 samples.

Results

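The BEX (brain expressed X-linked) genes were described in 32 cell lines established from human acute myeloid leukaemia (AML), each measured once on an Affymetrix expression array. The family comprised BEX1, BEX2, BEX3, BEX4 and BEX5, 5 of the 19775 genes that had a probe set with 1 gene symbol. Each of the 5 was represented by a single probe set, namely 218332_at for BEX1, 224367_at for BEX2, 217963_s_at for BEX3, 215440_s_at for BEX4 and 229963_at for BEX5. The genes had been picked for a wide, switch-like spread between lines, so their levels are given as a description and without a test. The study's interest was in how such lines respond to inhibitors of the PIM kinases; response data were not analysed here.

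BEX genes encode small, largely unstructured adaptor proteins that are abundant in brain and lie together on the long arm of the X chromosome. BEX3, also known as NADE or NGFRAP1, binds the p75 neurotrophin receptor and has been tied to apoptosis in neural cells. BEX1 has been described as a partner of the same receptor in rat cells, BEX2 as a partner of the haematopoietic factor LMO2 and BEX4 as a protein of microtubules. In blood cells the family is best known for being switched on in some leukaemias and silent in others.

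Of the lines, 21 grew in RPMI medium and 4 in IMDM (SHI-1, SH-2, OCI-M2 and OCI-M1), with serum and no named cytokine. F-36P received IL-3 at 5 ng/ml in RPMI medium, and OCI-AML2, OCI-AML3 and OCI-AML5 received GM-CSF or SCF in alpha-MEM. No medium was stated for MOLM-13, MOLM-16 and MV4-11. KG-1A and PLB-985 are known sublines of KG-1 and HL-60. No line had a replicate array, so each state rests on 1 measurement.

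Levels are log2(signal + 16), where signal is the authors' scaled intensity, so a level of 4 is the floor. A gene was called on in a line when its level lay at least 2 log2 units, or 4-fold, above the median of all probe sets on that array. It was called off at or below that median, and intermediate in between. Median signal lay between 68.2 and 115.4 on 30 arrays, against 198.4 on NOMO-1 and 243.3 on GF-D8. The GAPDH control ratio, 3′ over 5′ probe set, a measure of RNA integrity that is higher where transcripts are incomplete, was 0.871 to 1.24 on 24 arrays and 2.42 to 7.08 on the other 8 (GDM-1, HL-60, ML-2, MOLM-13, NB-4, THP-1, NOMO-1 and GF-D8). As to the labelled cell type, the 6 measured leukocyte markers averaged 2.87 to 5.83 log2 units above the array median in every line. The 12 stromal and epithelial markers averaged -1.01 to 0.42, and 7 of them were on in no line.

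The sequences upstream of the genes are shown because they fall into alike pairs, which the shared on states can be set beside. They are the 120 bases before the transcription start in RefSeq's windows (GRCh38.p14, 250 bases before to 50 after a start), written 5′ to 3′ on the gene's strand, and the capitals mark the palindrome CACGTG. BEX3 has 3 such windows and BEX4 has 2; the one most like another member is shown.
BEX1 (chrX:103064172-103064291, minus strand): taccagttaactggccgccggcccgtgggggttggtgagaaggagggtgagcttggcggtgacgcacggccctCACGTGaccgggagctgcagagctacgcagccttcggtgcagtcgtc
BEX3 (chrX:103376418-103376537, plus strand): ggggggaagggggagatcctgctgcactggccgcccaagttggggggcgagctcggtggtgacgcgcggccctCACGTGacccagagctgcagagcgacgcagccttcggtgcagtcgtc
BEX2 (chrX:103310991-103311110, minus strand): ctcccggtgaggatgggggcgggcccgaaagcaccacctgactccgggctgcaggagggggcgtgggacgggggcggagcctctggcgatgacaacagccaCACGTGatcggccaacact
BEX4 (chrX:103214988-103215107, plus strand): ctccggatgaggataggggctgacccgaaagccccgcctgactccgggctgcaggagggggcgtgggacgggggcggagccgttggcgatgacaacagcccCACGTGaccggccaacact

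BEX1 and BEX3 matched at 235 of 300 aligned columns (78.3%) and BEX2 and BEX4 at 254 of 303 (83.8%). In the other 8 pairs the best local alignment spanned only 20 to 88 columns. CACGTG, which reads the same on both strands, stood 47 bases before the start in BEX1 and BEX3 and 19 bases before it in BEX2 and BEX4. It was in the only window of BEX1 and of BEX2, in 1 of the 3 of BEX3, in both of BEX4, which overlap, and in neither of BEX5. Among all 35116 windows of 300 bases, 7.26% held it. CG dinucleotides, of which CACGTG holds 1, numbered 25 in the BEX1 window, 17 in that of BEX2, 7, 23 and 32 in the 3 of BEX3 (23 in the one shown), 16 and 17 in the 2 of BEX4 and 14 and 13 in the 2 of BEX5, against a median of 14 over all windows. TATAAA and GATAA, searched on both strands, were in none of these windows, and they occurred in 11.5% and 22.7% of all windows. GGGCGG, on both strands, occurred 2 times in the BEX2 window, 1 and 2 times in 2 of the 3 BEX3 windows, 1 time in each BEX4 window, 2 times in 1 of the 2 BEX5 windows and 0 times in that of BEX1, and in 45% of all windows. These matches describe letters only.

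BEX3 had the sharpest switch. It ranged from 4.31 in PLB-985 to 14.97 in GDM-1, with a median of 11.43, and its SD of 4.16 over 30 units (each subline pair averaged) ranked 2 among 15455 genes tested. In signal this is 3.8 against 32052.2. It was on in 18 lines, off in 13 and intermediate in F-36P at 7.16. The on lines spanned 10.28 to 14.97 with a median of 13.58, and the off lines 4.31 to 7.53 with a median of 4.63. No line lay between GF-D8 at 7.53 and SHI-1 at 10.28, a gap of 2.76. With at least 3 lines on each side, 0.304% of tested genes matched or exceeded it. The genes were picked for such a spread, so the rank and this share restate that choice.

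Most BEX3-on lines lay near the top of the range. In 16 of the 18 the level was 12.15 or above, and the other two were SHI-1 at 10.28 and NOMO-1 at 10.71. Signal was below 16 in 10 of the 13 off lines, where levels have no reliable order and the size of a fold is set by the added constant.

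BEX1 had 10 intermediate lines against 1 for BEX3, but these lay close to the off limit. They stood only 0.01 (KASUMI-1) to 0.74 (GDM-1) log2 units above their array's median. The lowest on line by this measure, F-36P, stood 2.12 above its own. Its levels ran from 5.48 in SKM-1 to 14.89 in ML-2, with a median of 8.53 and an SD of 3.22. In all, 16 lines were on, 6 off and 10 intermediate. The widest gap, 1.79 from 10.52 in SET2 to 12.31, separated 10 lines of high level from the rest and was wider than that of BEX4 (1.64). These 10 were ML-2 (14.89), SHI-1 (14.82), NOMO-1 (14.51), MOLM-13 (14.45), OCI-AML3 (14.26), EOL-1 (13.83), MV4-11 (13.82), THP-1 (13.30), HL-60 (12.31) and HEL (12.31). The other 6 on lines lay between 8.61 in F-36P and 10.52 in SET2.

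BEX1 was on in all 6 lines taken here as known carriers of a KMT2A fusion. These lines, MOLM-13, MV4-11, THP-1, NOMO-1, ML-2 and SHI-1, had a lowest BEX1 level of 13.30, a median of 14.48 and a highest of 14.89. The other 26 lines had a lowest of 5.48, a median of 7.20 and a highest of 14.26, and 10 of them were on. OCI-AML3 and EOL-1 were the 2 others at or above the lowest fusion line, so the groups overlapped. The fusion is background knowledge and not a label of the series, and the grouping was made after the values were seen, so it carries no test. The list may be incomplete, and any further carrier among the 26 would change these counts. By the same count, on in all 6 and in at most 10 of the 26, 27 of 15455 genes qualified (0.175%), a limit set at BEX1's own count. Of the 6 arrays, 4 had a GAPDH ratio above 2, and the 2 others, MV4-11 and SHI-1, read 13.82 and 14.82, while 9 of the 22 other lines of low ratio were on. Without NOMO-1 and GF-D8, BEX1 was on in 5 of 5 fusion lines and 10 of 25 others. These alternatives were chosen after seeing the data.

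No other member followed that division. BEX3 was on in 4 of the 6 fusion lines, with a lowest level of 4.44, a median of 10.50 and a highest of 13.88, and in 14 of the 26 others. BEX2, BEX4 and BEX5 were on in 0 of the 6, while 6, 11 and 3 of the 26 others had them on.

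BEX4 was on in 11 lines, off in 16 and intermediate in 5. Its levels ran from 4.26 in SKM-1 to 13.30 in F-36P, with a median of 6.73 and an SD of 3.05. The on lines spanned 10.05 to 13.30, with a gap of 1.64 below them down to OCI-AML3 at 8.41. After F-36P the highest were FKH-1 (12.50), HEL (12.35), OCI-M2 (12.34) and OCI-M1 (12.09).

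BEX2 and BEX5 were off in most lines. BEX2 was on in 6, namely OCI-M2 (11.48), OCI-M1 (10.70), SKM-1 (9.94), SET2 (9.37), KMOE-2 (9.20) and F-36P (8.88), and off in 23. Its median was 5.87 and its lowest level 4.26 in SHI-1, and the gap below the on lines was only 0.97. BEX5 was on in 3, FKH-1 (9.86), OCI-M2 (9.44) and SET2 (9.24), with 6 intermediate lines, of which NOMO-1, on the array of raised median, was highest at 8.48. Its median was 4.79, and signal was below 16 in 17 lines.

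**Figure D1:**
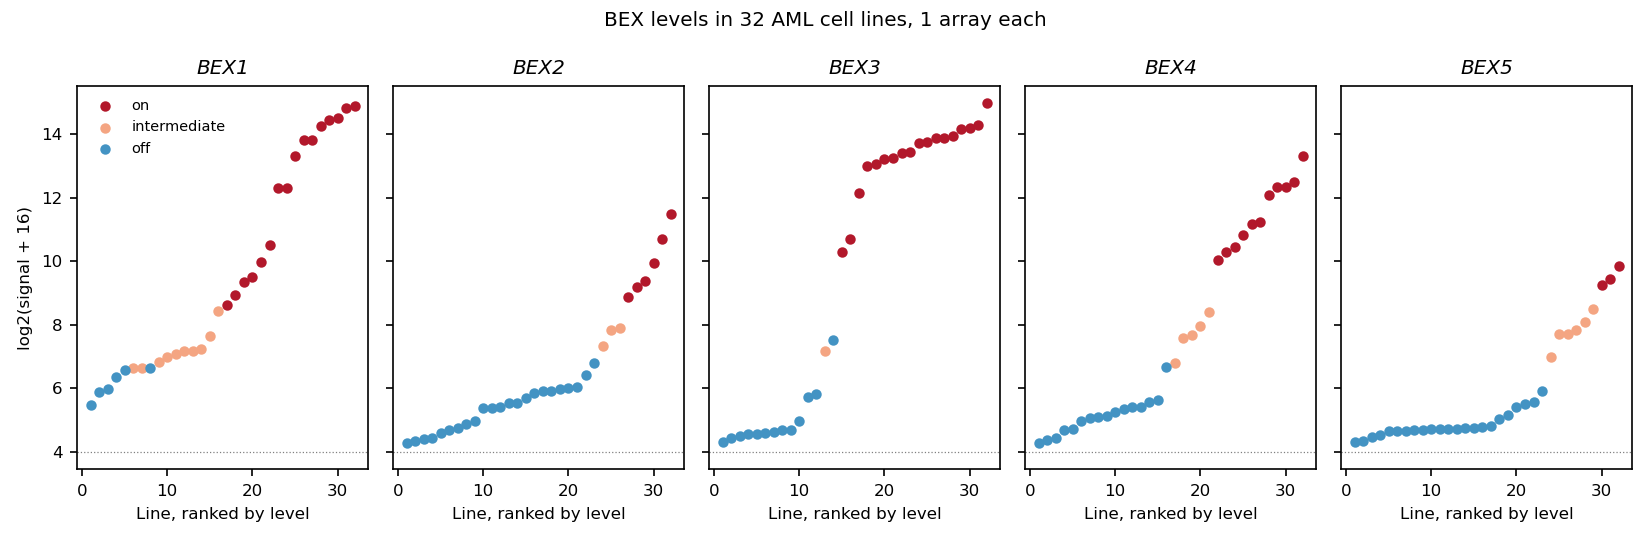
Level of each BEX gene, log2(signal + 16), in 32 lines ranked from low to high within each panel; colours give the state and the dotted line the floor of 4. BEX3 jumps from 7.53 to 10.28 while BEX1 rises in steps, and off and intermediate points can interleave because the limits follow each array's own median.

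As a background to these counts, 15.6% of the 15455 tested genes were on in at least 3 lines and off in at least 3, as all 5 BEX genes were. The family was chosen for this pattern, so nothing is read from the comparison. Older names swap the first 2 members: RefSeq lists BEX2 as a synonym of BEX1 and BEX1 as a synonym of BEX2. The accession behind the BEX1 probe set matches RefSeq's BEX1 entry, and that behind the BEX3 set matches BEX3. The accessions behind the BEX2, BEX4 and BEX5 probe sets were not among those listed in RefSeq's entries, so for these the symbol rests on the platform annotation, and the BEX2 name was not checked by accession. The probe sets of BEX3 and BEX4 carry the suffix that marks possible matches to more than 1 transcript. Cross-hybridization within the family was not tested.

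Family members shared lines in part. Of 160 calls, 54 were on. At least 1 member was on in 25 lines and none in 7, namely NB-4, KG-1, KG-1A, KASUMI-1, PLB-985, ME-1 and GF-D8. A single member was on in 7 lines, 2 in 11, 3 in 4 and 4 in OCI-M1 and OCI-M2. SET2 alone had all 5 on, at 13.87 for BEX3, 11.25 for BEX4, 10.52 for BEX1, 9.37 for BEX2 and 9.24 for BEX5.

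BEX3 accompanied BEX2, BEX4 and BEX5. At least 1 of these 3 was on in 13 lines, and BEX3 was on in 12 of them, the exception being F-36P. In the 19 lines with none of the 3 on, BEX3 was on in 6, of which 5 also had BEX1 on (THP-1, MV4-11, NOMO-1, OCI-AML3 and SHI-1) and 1, HNT-34, did not. Taken by pair, BEX3 was on in 10 of the 11 BEX4-on lines (90.9%), 5 of the 6 BEX2-on lines (83.3%) and 3 of the 3 BEX5-on lines, while it was on in 56.2% of all 32. In the other direction BEX4 was on in 55.6% of the BEX3-on lines, BEX2 in 27.8% and BEX5 in 16.7%. Their shares over all 32 lines were 34.4%, 18.8% and 9.38%. No line had BEX4 or BEX5 on and BEX3 off by these limits. F-36P came close, with BEX4 at 13.30 and BEX3 at 7.16, intermediate by its own array's median. That BEX3 level is below the 7.53 of GF-D8, which was called off.

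BEX2 and BEX4, the pair of most similar upstream sequence, were both on in 4 lines (F-36P, OCI-M1, OCI-M2 and SET2). This is 66.7% of the BEX2-on lines, while BEX4 was on in 34.4% of all 32. It is 36.4% of the BEX4-on lines, while BEX2 was on in 18.8% of all 32. SKM-1 and KMOE-2 had BEX2 on with BEX4 off, at 4.26 and 5.09. BEX5 was on only together with BEX3 and BEX4, but in just 3 lines. With the limit at its widest gap BEX5 was on in 9 lines, all with BEX3 on. Of these, SKM-1 (BEX5 at 7.71) had BEX4 off, THP-1 (6.97) and NOMO-1 (8.48) had it intermediate, and the rest had it on.

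BEX1 went its own way. It was on in 5 of the 13 lines with BEX2, BEX4 or BEX5 on, and in 11 of the 19 without. Of the 5, only HEL (12.31) lay above BEX1's widest gap. F-36P (8.61), OCI-M1 (9.33), MOLM-16 (9.51) and SET2 (10.52) lay below it, as did OCI-AML2 (8.92) and PL-21 (9.98) of the 11. BEX1 was the only member on in EOL-1, HL-60, ML-2, MOLM-13, OCI-AML2 and PL-21. BEX1 and BEX3, whose upstream sequences pair, were both on in 9 lines, which is 56.2% of the BEX1-on and 50% of the BEX3-on lines. These are the same as the shares over all 32 lines, where BEX3 was on in 56.2% and BEX1 in 50%. Among the 9, MOLM-16, OCI-M1 and SET2 had BEX1 below that gap. BEX1 was off in 5 lines with BEX3 on, and BEX3 was off in 6 lines with BEX1 on.

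**Figure D2:**
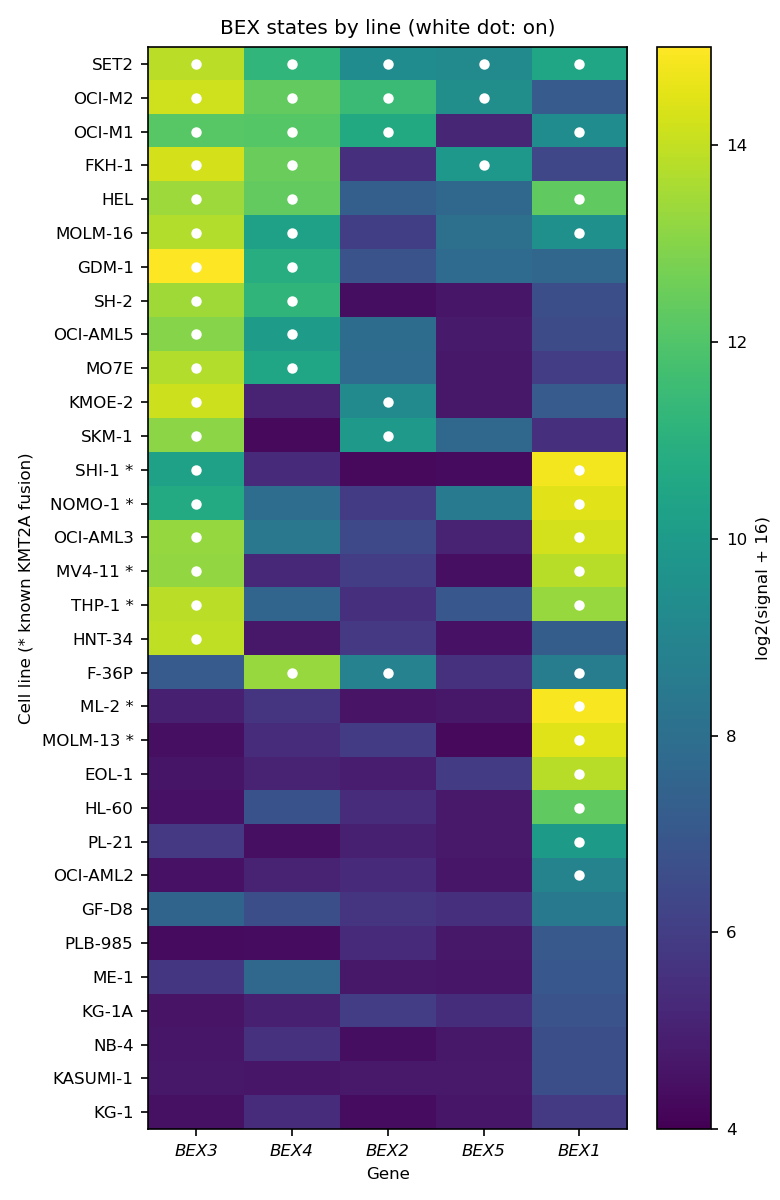
Level of each BEX gene, log2(signal + 16), by cell line, with rows grouped by state and white dots marking on; asterisks mark 6 lines known to carry a KMT2A fusion. BEX4, BEX2 and BEX5 are on almost only where BEX3 is, F-36P being the exception. Of its 16 on lines, BEX1 is the only member on in 6 and is on with BEX3 in 9. The 7 lines at the bottom have none on.

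Over the 30 units, Pearson's r was 0.54 for BEX3 with BEX4, 0.516 for BEX2 with BEX3, 0.501 for BEX3 with BEX5, 0.546 for BEX4 with BEX5, 0.491 for BEX2 with BEX4 and 0.407 for BEX2 with BEX5. The 4 pairs with BEX1 had r from -0.264 with BEX2 to -0.056 with BEX5. These values describe likeness, with no test, and since the levels fall into on and off clusters they mainly restate shared states. Where both genes were on, r was -0.012 for BEX3 with BEX4 (10 lines) and -0.453 for BEX1 with BEX3 (9 lines). The other pairs shared fewer than 6 on lines. Ranked by r among 15454 other tested genes, BEX4 stood at 87 for BEX3 and BEX3 at 270 for BEX4. Likewise the ranks were 361 and 116 for BEX2 with BEX3, 148 and 222 for BEX3 with BEX5, and 253 and 109 for BEX4 with BEX5. They were 466 and 462 for BEX2 with BEX4, and 947 and 697 for BEX2 with BEX5. Many genes outside the family were thus more like a member than its relatives were.

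Closely related lines did not always share a state. HL-60 had BEX1 at 12.31, against 7.09 in its subline PLB-985, a 37.4-fold difference that ranked 23 in size among 15455 genes. BEX4 was 6.79 in HL-60 and 4.36 in PLB-985, while BEX2, BEX3 and BEX5 differed by at most 0.24. At least 4-fold apart were 5.27% of the tested genes in this pair, and 2.96% were that much higher in HL-60. The HL-60 array had the highest GAPDH ratio of all, 7.08, against 0.93 for PLB-985, and its part in the difference was not tested. KG-1 and KG-1A had none of the 5 on, and none of the 5 was 4-fold apart between them (5.87% of genes were at least 4-fold apart, and 2.39% that much higher in KG-1).

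MOLM-13 and MV4-11, both carriers of a KMT2A fusion, had opposite BEX3 states. BEX3 was off at 4.44 in MOLM-13, where its signal of 5.7 lay under the added constant of 16, and on at 13.22 in MV4-11. No exact fold is given against a value so near the floor, and 3.55% of the 15455 tested genes were at least 4-fold apart in this pair. Both had BEX1 on, at 14.45 in MOLM-13 and 13.82 in MV4-11, and the other 3 members off in both. This pair was singled out after its values were seen, with 1 array a line.

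The TCEAL genes, close relatives of the BEX genes named for likeness to transcription elongation factor A, lie among them on the X chromosome. Of 9 TCEAL genes 7 had a probe set, 5 passed the filter on low levels (over 6.73 on the log2 scale in 3 or more units), and TCEAL2 and TCEAL7 did not. TCEAL9, the gene next to BEX3, was also the gene outside the family most like it, with r = 0.735 over 30 units. Its levels ran from 4.50 in PL-21 to 12.85 in KMOE-2, with a median of 8.23. TCEAL9 was on in 14 lines, and in 13 of the 18 BEX3-on lines. SKM-1, FKH-1 and SHI-1 had BEX3 on with TCEAL9 off, at 4.94, 4.56 and 5.63.

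TCEAL3 and TCEAL4 followed with r = 0.709 and 0.704 with BEX3, ranking 3 and 6 among genes outside the family. TCEAL3 ran from 4.80 to 11.45 and was on in 12 lines, and TCEAL4 from 4.35 to 13.15 and was on in 19. TCEAL1 had r = 0.637 and TCEAL8 r = 0.50 with BEX3. The median r of the 5 with BEX3 was 0.704, against 0.012 over all tested genes. With BEX4 it was 0.572 (all genes -0.009), with BEX5 0.381 (0.041), with BEX2 0.36 (-0.037) and with BEX1 -0.216 (0.026). BEX3 has TCEAL9 on one side and, beyond RAB40A, the genes TCEAL4, TCEAL3 and TCEAL1 on the other.

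BEX1 was most like a different neighbour. NXF3, a gene of the nuclear RNA export factor family that lies between BEX1 and BEX4, had r = 0.645 with BEX1, rank 13 outside the family, and -0.22 with BEX3. NXF3 ran from 4.19 in KG-1 to 15.01 in NOMO-1, with a median of 11.28. It was on in 23 lines, which included all 16 BEX1-on lines, so NXF3 was also on without BEX1, as in GF-D8 at 13.84, NB-4 at 12.00, PLB-985 at 11.90 and SH-2 at 11.28.

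Of 36 protein-coding genes within 10 places of a BEX gene, 24 had a probe set and 19 were tested, and 9 of these had r of at least 0.5 with some member, as had 6.6% of all tested genes outside the family. For BEX3 there were 6 (0.945% of all tested genes), for BEX4 5 (2.72%), for BEX5 4 (1.44%), for BEX1 1 (1.02%) and for BEX2 1 (2.78%). Besides NXF3 and the TCEAL genes they were armadillo-repeat genes: ARMCX1 with BEX4 (r = 0.64) and BEX5 (0.517), ARMCX3 with BEX3 (0.507) and ARMCX4 with BEX5 (0.57). ARMCX1 was on in 9 lines, 6 of them with BEX4 on and 2 with BEX5 on. ARMCX3 was on in 26 lines, which included all 18 BEX3-on lines. ARMCX4 was on in only 2 lines and in 0 of the BEX5-on lines. The median r over the 19 neighbours was 0.326 with BEX3, 0.28 with BEX4, 0.331 with BEX5, 0.093 with BEX2 and -0.027 with BEX1. MORF4L2, a chromatin gene in the same stretch, was on in all 32 lines, at 13.29 to 15.60. In all these correlations the points share the array platform and its scaling, and lines are not replicates of a condition.

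**Figure D3:**
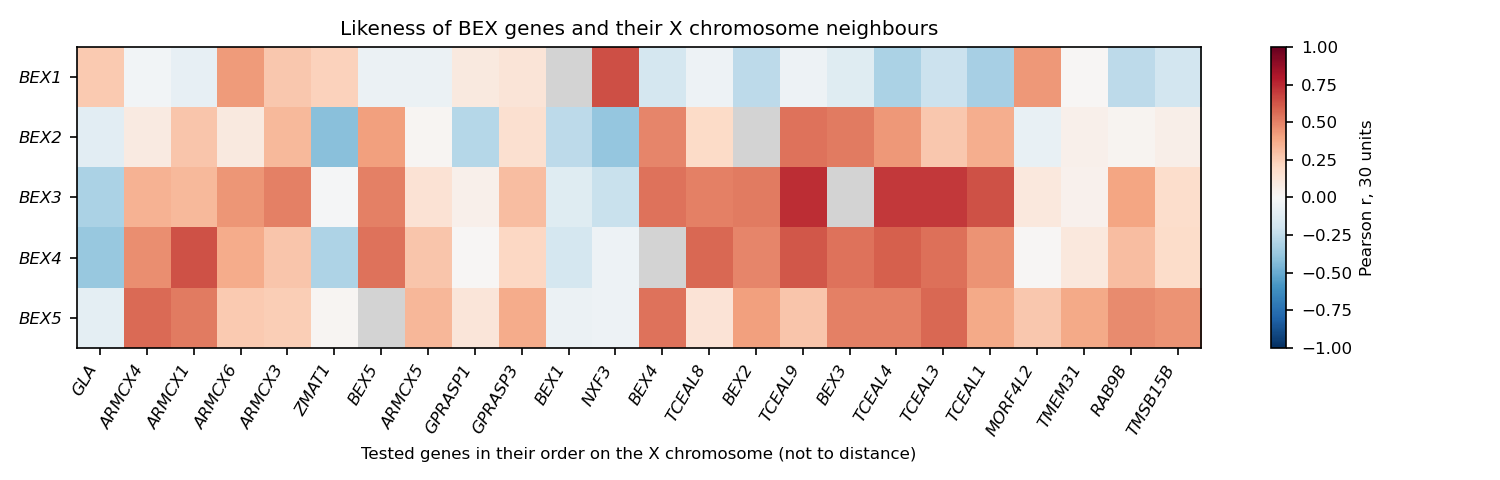
Pearson's r over 30 units between each BEX gene (rows) and the tested genes around the family (columns, in chromosome order and not to distance); grey marks a gene with itself. BEX3 and BEX4 are red across the TCEAL genes, while BEX1 is near 0 or blue there and has its darkest cell at NXF3 (0.645).

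Elsewhere in the genome, the genes most like BEX1 were TOX2, which encodes an HMG-box protein (r = 0.713), the carboxylesterase gene CES1 (0.698) and the glycosyltransferase gene B3GNT7 (0.687). CES1 was on in 16 lines, from 4.40 in F-36P to 13.94 in NOMO-1. The homeobox gene HHEX was least like BEX1 (-0.71), with its lowest level, 7.91, in ML-2, where BEX1 was highest. Without the 8 arrays of GAPDH ratio above 2, r with BEX1 was 0.663 for TOX2, 0.538 for CES1, 0.521 for B3GNT7 and -0.62 for HHEX.

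For BEX4 the most like were AKR1C3, an aldo-keto reductase gene (r = 0.816), PCYT1B, of phosphatidylcholine synthesis (0.799), and the copper transporter gene ATP7B (0.779). AKR1C3 ran from 4.08, at the floor, to 13.29 in SET2. Least like was the sorting nexin gene SNX10 (-0.727), lowest in MOLM-16 at 5.63.

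For BEX2 they were FGF13 (r = 0.81), of the fibroblast growth factor homologues that stay inside the cell, the collagen lysyl hydroxylase gene PLOD2 (0.791) and the myosin gene MYO1D (0.79). FGF13 was on in 5 lines and highest in F-36P at 12.30, and MYO1D in 2, with 10.47 in OCI-M1. SNX20 was least like BEX2 (-0.808). For BEX3, FHL2, which encodes a LIM-domain cofactor, stood at 0.71 and LINC03014 at -0.643. For BEX5 the protease gene PRSS16 (0.705), PLVAP, a gene of endothelial cells (0.688), and the sphingosine-1-phosphate receptor gene S1PR1 (0.686) came first. PRSS16 was on in no line, and Spearman's rho was only 0.412 for PLVAP and 0.448 for S1PR1.

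The series' drug targets are the kinases PIM1, PIM2 and PIM3, so each gene's slope on the level of each target was fitted over the 30 units with limma. BEX4 rose with PIM2, by 2.08 ± 0.51 log2 units per log2 unit of PIM2 (SE; limma adjusted p = 0.0349). Of all 15454 genes 1.48% passed with PIM2, where 0.725% rose and 0.757% fell. When each array was instead centred on its median, 86.3% of the calls rose, against 48.9% without centring. This slope was known when the family was chosen and is no independent support.

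BEX4 lost its call when any 1 of 6 lines was left out, with slopes of 1.92 to 2.36. The limma adjusted p was 0.0631 without F-36P, 0.0875 without OCI-M1, 0.0519 without PL-21, 0.0661 without OCI-M2, 0.0797 without HEL and 0.0581 without SET2. Under the 8 other settings adjusted p lay between 0.00933 and 0.0427, and the slope between 1.65 and 2.59.

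BEX2 had a PIM2 slope of 1.08 ± 0.37, which did not pass (limma adjusted p = 0.12). It passed after quantile normalization (slope 1.075, adjusted p = 0.0341), median centring (1.072, adjusted p = 0.014) or without SKM-1 (1.31 ± 0.34, adjusted p = 0.0398). BEX3, BEX5 and BEX1 had slopes of 1.36 ± 0.82, 0.54 ± 0.35 and 0.31 ± 0.66, with limma adjusted p of 0.348, 0.384 and 0.805.

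**Figure D4:**
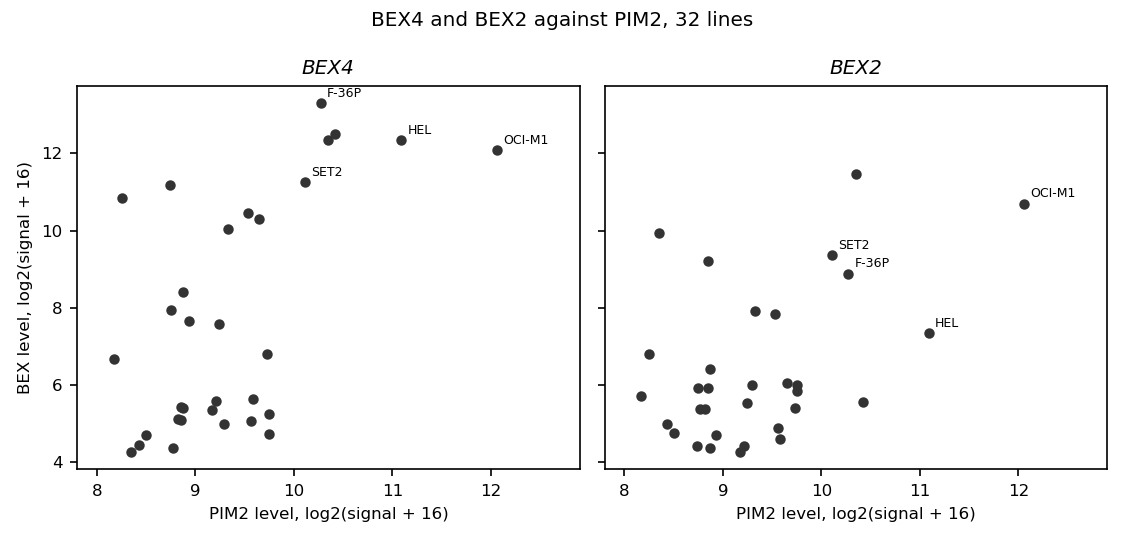
BEX4 (left) and BEX2 (right) level against PIM2 level, both log2(signal + 16), 1 point per line for 32 lines. The labelled F-36P, HEL, OCI-M1 and SET2 are 4 of the 6 lines without any one of which the BEX4 slope of 2.08 no longer passes.

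With PIM1 the 5 slopes lay between 0.06 ± 0.27 for BEX1 and 0.61 ± 0.23 for BEX4, and none passed (limma adjusted p from 0.539 to 0.989), where 0.00647% of all genes were called. The unadjusted p was 0.0117 for BEX4 and 0.206 to 0.82 for the others. With PIM3, BEX4 had a slope of -2.08 ± 0.86, BEX2 one of -1.02 ± 0.60, BEX3 of -0.98 ± 1.3, BEX5 of -0.89 ± 0.52 and BEX1 of 0.37 ± 0.99. None passed (limma adjusted p from 0.189 to 0.866), where 0.278% of genes rose and 0.291% fell, and the unadjusted p was 0.0217 for BEX4 and 0.0964 to 0.711 for the others. Of the 5 tested TCEAL genes, 0 passed with PIM1, PIM2 or PIM3 by limma.

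Growth medium was the only other condition the labels gave. In the 4 cytokine-grown lines, BEX3 was 13.01 in OCI-AML5, 13.26 in OCI-AML3, 7.16 in F-36P and 4.55 in OCI-AML2, and in the 23 units without a named cytokine it ranged from 4.43 to 14.97 with a median of 12.15. BEX4 was 13.30 in F-36P, 10.05 in OCI-AML5, 8.41 in OCI-AML3 and 5.11 in OCI-AML2, against 4.26 to 12.50 with a median of 6.66 in the 23. The groups overlapped widely for both genes. The 4 cytokine-grown lines minus the 23 units without a named cytokine differed by 1.46 ± 1.6 for BEX4 and 0.68 ± 1.1 for BEX2. The differences were 0.38 ± 1.6 for BEX1, -0.64 ± 2.1 for BEX3 and -1.08 ± 0.89 for BEX5, with limma adjusted p from 0.915 to 0.98 for all of them. Lines with no stated medium were left out. Whether any of the 23 received a cytokine that was not named is not known. Limma called 0 of 15455 genes (0%), with 878 at an unadjusted p under 0.05, of which no BEX gene was one (0.237 to 0.818). Medium and line identity cannot be told apart.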

How the data were processed

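The authors deposited 1 linear intensity per probe set and array, from Affymetrix Expression Console per the submitters' processing notes; the version and summarization method are not given in the sources used here. With 2% of values dropped at both ends, the mean was 500 to 500.1 on every array. This scaling was kept, and values entered as log2(signal + 16). Of 54675 probe sets, 41091 had 1 gene symbol, 1801 several and 62 were controls. The probe set with the highest mean over 32 lines stood for a gene, symbols were updated through RefSeq identifiers, and 49 probe sets with 1 symbol had no match. Genes over 6.73 (the overall median) in 3 or more units were tested.

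Slopes and differences used limma 3.58.1 in R 4.3.3 (lmFit, eBayes with trend), two-sided, with Benjamini-Hochberg adjustment over all tested genes and a threshold of 0.05. The fit was tested on simulated data with known slopes on PIM2. Their noise was normal and independent between genes, unlike on-off levels, so that test does not bear on the BEX calls. HL-60 with PLB-985 and KG-1 with KG-1A were averaged, which gave 30 units; BEX1 differed within the first pair. KG-1A's medium was taken from a protocol entry for KG1 that carries a question mark. Each ± is a standard error. With 1 array a line, a p-value weighs a slope or difference against the spread between lines. It says nothing of the spread between arrays of the same line. Precision is limited by how many arrays there are.

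Promoter windows are RefSeq's, aligned locally with Biopython 1.88. Plots used matplotlib 3.10.9. Named genes were the BEX genes, for each the 3 most and 1 least like, measured TCEAL genes, neighbours with r of at least 0.5, and in each gene list members that passed and the 2 most like or unlike BEX3; other genes and pairs of lines were chosen after their values were seen. Members and lists were chosen with earlier results of these data known. Alternatives were other pseudocounts (1 and 64), no filter, quantile normalization, median centring, lines unmerged, arrays left out and other limits for the on state.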

Additional observations from a re-analysis of the deposited data

How the results depend on the processing

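The 54 on calls became 45 to 54 under the 7 other settings, none of which moved the count by over 1.5 times. With 1 limit per gene at its widest gap, BEX1 was on in 10 lines in place of 16 and BEX5 in 9 in place of 3. In each of the 7 other settings for likeness, 6 of the 10 BEX pairs had r of at least 0.3. Counts over all genes were less stable. For PIM1, with 1 gene called, the count was 3 with a pseudocount of 1 or quantile normalization and 2 with median centring, unmerged lines, without NOMO-1 and GF-D8, or without the arrays of GAPDH ratio above 2. For PIM2, with 229, it was 1741 with quantile normalization, 4091 with median centring and 123 without the arrays of high ratio. For PIM3, with 88, it was 22 with no filter, 1057 with quantile normalization, 46 with median centring (97.8% of them rising, against 48.9%), 540 with unmerged lines, 31 without NOMO-1 and GF-D8 and 0 without the arrays of high ratio (1262 at an unadjusted p under 0.05 by limma). For cytokine it was 4 without those arrays. Leaving out 1 line gave 1 to 3 calls for PIM1, 0 (without OCI-M1, with 2756 at an unadjusted p under 0.05 by limma) to 404 (without KMOE-2) for PIM2, 3 (without NB-4) to 403 (without NOMO-1) for PIM3 and 0 to 1 for cytokine. The cause was not tested. No slope of a BEX gene that passed changed direction under any of these settings. Averaging several probe sets of a gene was not run, because each BEX gene has 1. Levels near the floor of 4 have no reliable order.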

Other observations

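Lineage gene lists lay at different distances from the members, as median r over 30 units and with no test. The erythroid list (13 tested) had 0.604 with BEX4, 0.531 with BEX2, 0.494 with BEX5, 0.287 with BEX3 and -0.017 with BEX1, where all tested genes had -0.009, -0.037, 0.041, 0.012 and 0.026. HBD (delta globin) and HBB (beta globin) had r of 0.48 and 0.42 with BEX3, and HBD had 0.72 with BEX4. With PIM2, 5 of the 13 rose by limma, as BEX4 did, and 0 fell, where 0.725% of all tested genes rose and 0.757% fell. The 5 were KLF1, HBZ, CA1, KEL and EPB42, the last of these on in only 2 lines. None of these calls remained without OCI-M1, when limma called 0 genes with PIM2 (2756 at an unadjusted p under 0.05). The megakaryocyte and platelet list had 0.446 with BEX4, and ITGA2B and PPBP had 0.51 and 0.47 with BEX3. PPBP was on in only 1 line. The granule list ran the other way, at -0.433 with BEX2, -0.369 with BEX3 and -0.36 with BEX4 but 0.242 with BEX1. MPO (myeloperoxidase) had -0.43 and LCN2 0.42 with BEX3, and MPO and CSF3R fell with PIM2, calls that also need OCI-M1. The monocyte and macrophage list had 0.326 with BEX1 and -0.051 with BEX3. CD14 had 0.605 with BEX1 and -0.224 with BEX3, and ITGAM 0.209 with BEX3. However, CD14 was on only in OCI-AML3, at 9.49, and off in 27 lines, so its r rests largely on low levels.

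Lists of known partners of the proteins were measured in the same way. The p75 neurotrophin receptor list had a median r between -0.121 with BEX2 and 0.037 with BEX5 over 10 tested genes. BDNF, on in no line, had -0.40 and TRAF6 0.38 with BEX3. IRAK1 and ARHGDIA rose with PIM3, where 0.278% of all tested genes rose. Neither call remained without the arrays of GAPDH ratio above 2, when limma called 0 genes with PIM3 (1262 at an unadjusted p under 0.05), and without NB-4 limma called 3 genes in all. The LMO2 complex list had 0.246 with BEX2 and 0.326 with BEX3, led by TAL1 (0.51) and CBFA2T3 (0.38 with BEX3). Neuronal genes as a list had -0.018 with BEX3, and 13 of 20 were on in no line, although RTN1 had 0.67. SYT1, itself on in no line, had 0.37. The stem and progenitor list had 0.201 with BEX3 (KIT 0.56, MECOM 0.51) and the DNA methylation list -0.076 (MBD2 -0.47, DNMT3B 0.41). Leukocyte markers had -0.166 (CORO1A -0.38, MYB -0.38) and stromal and epithelial genes 0.052 (KRT18 0.32, CDH5 0.30). B and T cell genes had 0.03 (CD79A -0.16, CD3E 0.14). CDH5 was on in 1 line and CD3E in none. CORO1A and the BEX5 neighbour ZMAT1 fell with PIM2 (limma adjusted p = 0.0259 and 0.0484), where 0.757% of all tested genes fell. Neither call remained without OCI-M1, when limma called 0 genes with PIM2 (2756 at an unadjusted p under 0.05). No other member of these lists passed by limma with a PIM gene, and none with cytokine.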
